A study of Mus musculus with 6 samples.

Results

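The genes described here are 10 genes of the antioxidant response and of its regulator NRF2. They were chosen by symbol from the table of normalized read counts, which listed 41255 genes. The members were Nfe2l2, Keap1, Gclc, Gclm, Txnrd1, Srxn1, Cat, Nqo1, Hmox1 and Sqstm1, and each symbol matched 1 row. The selection rule itself uses gene names, but the members were chosen with earlier results of these data known.

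NRF2, the product of Nfe2l2, is a transcription factor that the adaptor protein KEAP1 captures in the cytoplasm and passes to a CUL3 ubiquitin ligase for degradation. Oxidants and electrophiles modify KEAP1, newly made NRF2 then accumulates, pairs with a small MAF protein and binds antioxidant response elements near genes for glutathione synthesis, thioredoxin recycling, quinone reduction and haem breakdown. The adaptor protein p62, encoded by Sqstm1, binds KEAP1 and is itself encoded by an NRF2 target gene. The mRNA of Nfe2l2 and Keap1 therefore reports only part of the activity of the pathway, which is set largely at the level of NRF2 protein.

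Total mRNA was measured in Ba/F3 cells, which are mouse lymphoid cells that need interleukin-3 to grow. All 6 cultures carried a retroviral human RPL10 cDNA together with a short hairpin RNA against the mouse Rpl10 gene. The cDNA was WT in clones 28, 29 and 36 and R98S, an arginine-to-serine change of the protein, in clones 11, 13 and 35. Each culture had grown from 1 cell and was selected for strong knockdown, so a group consisted of 3 clones and a difference between groups includes the differences between clonal lines. All cultures received cycloheximide at 100 µg/ml for 5 min before lysis. The comparison asks how the mRNA levels of these genes differed between R98S and WT clones.

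Library depth was between 21786776 and 24204991 reads on genes, and 3 reads, taken as the limit that a count of 0 allows, equalled 2.78 to 3.22 normalized counts. Each member was far above that limit in every library. Values are read counts divided by a size factor per library, differences are on the log2(normalized count + 1) scale, and tests are limma fits over the 11550 genes whose mean reached 10 normalized counts, called at a Benjamini-Hochberg adjusted p under 0.1. Over all tested genes, 23.9% were called in either direction, 10.7% higher and 13.1% lower in R98S, and the median log2 difference was -0.01. Intervals are 95% confidence intervals of the same fit. The knocked-down gene Rpl10 gave 2853, 3156 and 1900 normalized counts in WT clones against 3028, 1883 and 2617 in R98S clones. Its groups overlapped (limma adjusted p = 0.871), and since all clones carried the hairpin it does not tell the groups apart. Whether reads of the human RPL10 cDNA were counted on this gene was not tested. Of 13 marker genes for Ba/F3 and early B cells, 6 had a mean of at least 10. These were the interleukin-3 receptor genes Il3ra, Csf2rb and Csf2rb2, and also Ptprc, Cd79a and Cd79b. Csf2rb, Csf2rb2 and Cd79b were called higher in R98S and Ptprc was called lower, while Il3ra and Cd79a were not called. Pax5, Vpreb1, Igll1, Dntt and Kit had at most 3 reads in any library. Of 6 T cell markers 1 reached that mean, Cd3d, and their summed level was 19.3 to 79.1 normalized counts in WT and 51.0 to 103 in R98S. The sum of WT clone 36 included 43.0 of Cd3g, so the overlap of these sums does not show how Cd3d differed between the groups. In these bulk cultures, fewer cells that express a gene and less RNA of it per cell cannot be told apart.

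Of the 10 members, 4 were called and all 4 were lower in R98S: Gclm, Hmox1, Srxn1 and Nqo1, beside 13.1% of all tested genes called lower. These 4 genes also had no overlap between the groups, which was the case for 37.3% of all tested genes in either direction and for 19.2% with lower values in R98S. The remaining 6 members, including the transcription factor and its repressor, did not pass the threshold. All 10 log2 differences were negative, with a median of -0.45, beside 5883 negative differences among the 11550 tested genes. Those of Keap1 and Gclc were close to 0 and turned positive under scaling to the same upper quartile. Each kept its sign in 13 of the 16 alternative fits that were compared. The difference of Txnrd1 turned positive after removal of the regional shift, and that of Cat without R98S clone 35. The 4 called genes stood at between 0.58 and 0.60 of the WT level.

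**Figure D1:**
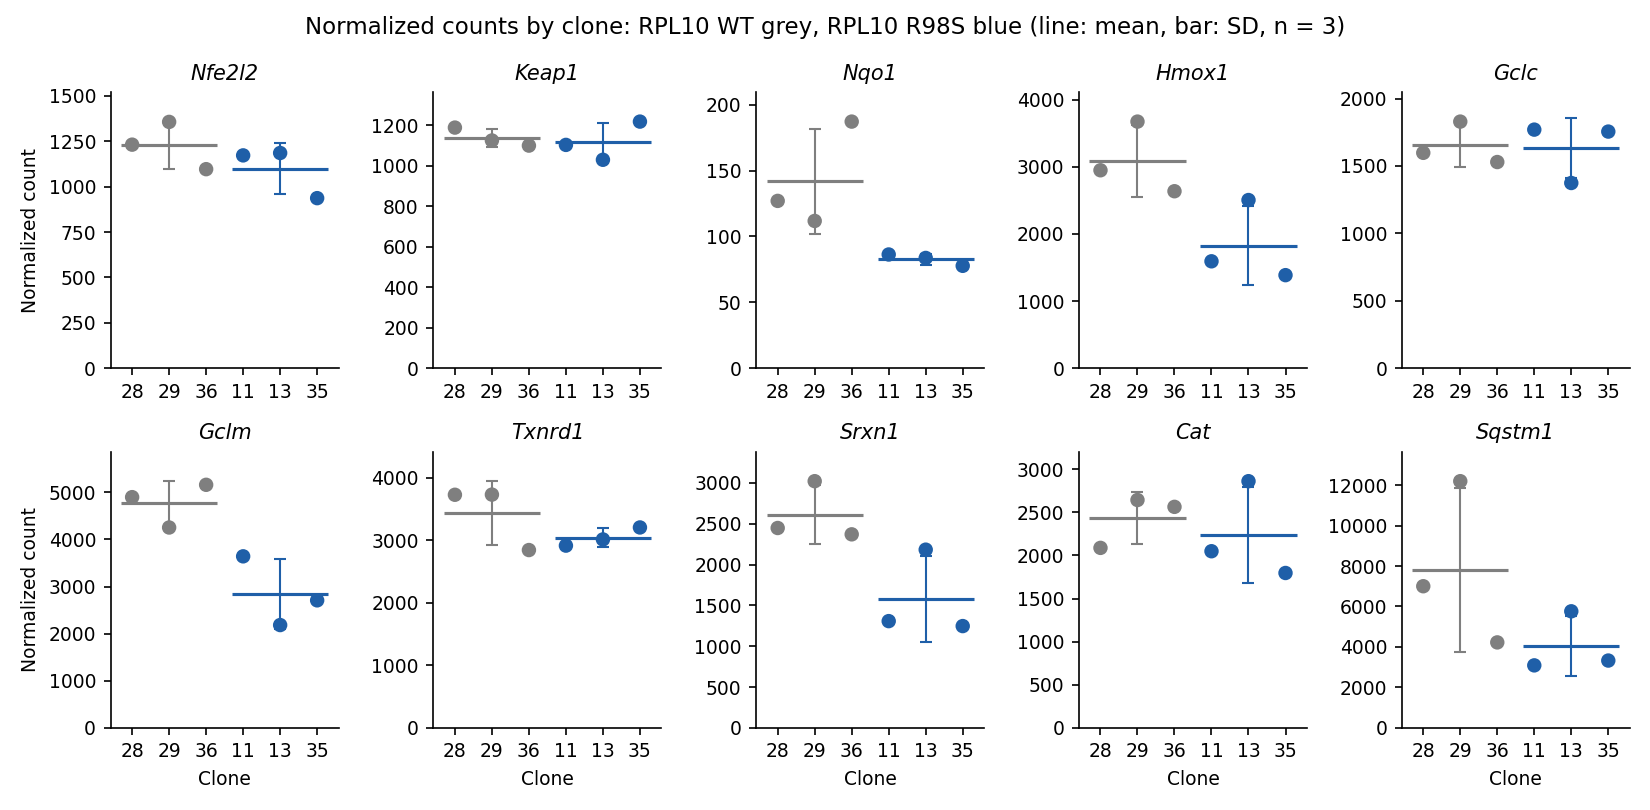
Normalized read count of each member in each of the 6 clones, on linear axes that start at 0, with 1 point per clone, a line at the group mean and a bar for the SD. In Gclm, Hmox1, Srxn1 and Nqo1 the 3 R98S clones lie below the 3 WT clones, and in the other 6 members the groups overlap.

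The regulator Nfe2l2 (minus strand of chromosome 2, 75675513 to 75704641 in GRCm38) gave 1232, 1357 and 1097 normalized counts in WT against 1173, 1186 and 937 in R98S, where values are listed by clone in the order 28, 29, 36 and 11, 13, 35 here and below. The groups overlapped, since only R98S clone 35 was below all WT clones. Means were 1229 ± 130 (SD, n = 3) in WT and 1099 ± 140 in R98S, a log2 difference of -0.16 (interval -0.49 to 0.16, limma adjusted p = 0.456). Keap1 (minus strand of chromosome 9, 21229730 to 21239361) gave 1189, 1125 and 1100 normalized counts in WT against 1103, 1030 and 1218 in R98S. Its highest and lowest values were both in R98S clones, so the groups overlapped. The log2 difference was -0.03 (interval -0.29 to 0.23, limma adjusted p = 0.885). Its exons share 510 bases with the antisense gene Gm16754, which had a mean of 2.35 normalized counts. A difference in Nfe2l2 mRNA beyond 0.49 or in Keap1 mRNA beyond 0.29 on the log2 scale lies outside these intervals.

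The ratio of Nfe2l2 to Keap1 within a library does not depend on the size factor. It was 1.04, 1.21 and 0.997 in WT against 1.06, 1.15 and 0.769 in R98S. Only R98S clone 35 was outside the WT range, and the log2 difference of -0.13 had an exact two-sided permutation p of 0.7. Without R98S clone 35 the difference was 0.04 and thus of opposite sign. The smallest p that 3 clones against 3 allow in this test is 0.1.

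NRF2 binds DNA as a heterodimer with a small MAF protein, competes with BACH1 and is related to NFE2 and NFE2L1. Of 12 genes for such partners and for the ligases that degrade NRF2, 10 were tested and 2 were called, both lower in R98S, with a list median of -0.29. Nfe2, the NRF2 relative known from blood cells, gave 4727, 4219 and 5891 normalized counts in WT against 3004, 3056 and 2258 in R98S. It fell by 0.83 on the log2 scale (limma adjusted p = 0.0165) and passed in all 16 alternative fits that were compared. Mafg, a small MAF gene, gave 2559, 2496 and 2349 in WT against 1630, 2115 and 1649 in R98S and fell by 0.47 (limma adjusted p = 0.0447). The call of Mafg was lost without R98S clone 11 or 35 or WT clone 28 or 29, with limma adjusted p between 0.118 and 0.153. Its exons share 124 bases with Sirt7 on the same strand, a gene with a mean of 1160 normalized counts, so its count is uncertain. The other small MAF genes, Mafk and Maff, differed by -0.07 and -0.10 and did not pass (limma adjusted p = 0.761 and 0.858).

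The repressor gene Bach1 gave 1041, 1276 and 1012 normalized counts in WT against 902, 883 and 892 in R98S, without overlap, but the log2 difference of -0.31 did not pass (limma adjusted p = 0.137). Nfe2l1 differed by -0.53 with overlapping groups (limma adjusted p = 0.167), and passed without WT clone 36 (-0.76, limma adjusted p = 0.0541), after removal of the regional shift (-0.79, 0.0507) and with DESeq2 (-0.54, 0.0840). Among the ligase genes, Cul3, the scaffold that KEAP1 recruits, had a log2 difference of 0.26 (limma adjusted p = 0.120), which passed without R98S clone 35 (limma adjusted p = 0.0975), with DESeq2 (0.0779) and under scaling to the same total (0.0872) or upper quartile (0.0894). Rbx1, its RING partner, differed by -0.28 (limma adjusted p = 0.196). Btrc and Gsk3b, of the KEAP1-independent degradation route, differed by 0.42 and -0.33 (limma adjusted p = 0.102 and 0.113), and Gsk3b passed without WT clone 36 (limma adjusted p = 0.0711) and with DESeq2 (adjusted p = 0.0835). Btrc passed in 5 of the 16 alternative fits, with adjusted p of 0.0647 with DESeq2, 0.0898 with edgeR, and between 0.0727 and 0.0924 with limma at a minimum mean of 50 and under both other scalings. Nfe2l3 and Bach2 had at most 8 reads in any library and were not tested.

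Glutamate-cysteine ligase performs the rate-limiting step of glutathione synthesis and consists of a catalytic subunit, encoded by Gclc, and a modifier subunit, encoded by Gclm, that raises its activity. Gclc (plus strand of chromosome 9, 77754535 to 77794485) gave 1597, 1829 and 1529 normalized counts in WT against 1769, 1374 and 1755 in R98S. The R98S clones 11 and 35 lay within the WT range and clone 13 below it. The log2 difference was -0.02 (interval -0.34 to 0.29, limma adjusted p = 0.930).

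Gclm (plus strand of chromosome 3, 122245557 to 122270732) gave 4898, 4253 and 5160 normalized counts in WT against 3641, 2182 and 2707 in R98S. Every R98S clone was below every WT clone, and R98S clone 13 was the lowest. The mean fell from 4770 ± 466 (SD, n = 3) to 2843 ± 739, to 0.596 of the WT level, a log2 difference of -0.77 (SE 0.18, interval -1.19 to -0.35, limma adjusted p = 0.0286). Gclm was the only member that passed in all 16 alternative fits, with adjusted p between 0.0019 and 0.0905. The regional shift was taken, per library, as the median deviation of the 30 nearest tested genes from their own means over all clones. Around Gclm on chromosome 3, the mean of this shift was 0.27 log2 units lower in R98S than in WT. With this regional shift removed from each library, Gclm differed by -0.51 (limma adjusted p = 0.0519), and the part of the genomic surroundings in the result was not tested further. Exons of Gclm share 296 bases with Gm17494 on the opposite strand, a gene with a mean of 3.78 normalized counts.

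The ratio of Gclm to Gclc was 3.07, 2.33 and 3.37 in WT against 2.06, 1.59 and 1.54 in R98S. All R98S clones had a lower ratio than all WT clones. The mean ratio was 2.92 ± 0.539 (SD, n = 3) in WT and 1.73 ± 0.285 in R98S, a log2 difference of -0.75. The exact two-sided permutation p was 0.1, the smallest that this design allows, so the ratio cannot reach a threshold of 0.05 with 3 clones per group.

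**Figure D2:**
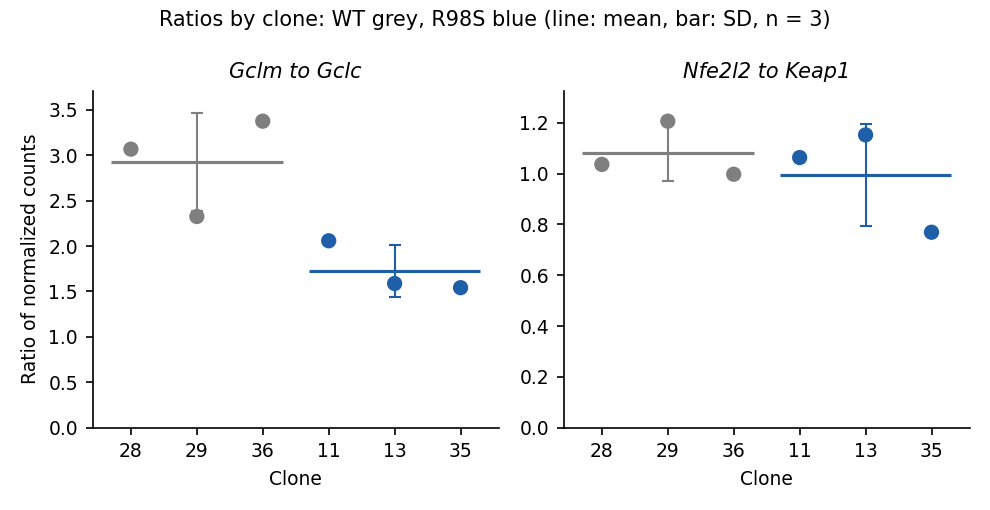
Ratio of Gclm to Gclc and of Nfe2l2 to Keap1 within each clone, on a linear axis that starts at 0, with 1 point per clone, a line at the group mean and a bar for the SD. The Gclm to Gclc ratio lies between 2.33 and 3.37 in WT and between 1.54 and 2.06 in R98S, while the ranges of the Nfe2l2 to Keap1 ratio overlap.

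The promoter of Gclm is shown because it holds a match to the antioxidant response element core, searched as TGACNNNGC on both strands. The 250 bases before the RefSeq transcription start (GRCm38.p6, chr3:122245307-122245556, plus strand) are printed 5′ to 3′, with the match in capitals. It reads on the minus strand and spans positions -134 to -126 from the start.
Gclm: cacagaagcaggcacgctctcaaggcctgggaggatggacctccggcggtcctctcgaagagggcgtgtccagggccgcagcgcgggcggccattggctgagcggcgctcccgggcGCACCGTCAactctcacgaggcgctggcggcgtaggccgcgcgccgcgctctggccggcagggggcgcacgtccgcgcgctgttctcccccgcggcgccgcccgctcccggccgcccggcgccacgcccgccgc

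Across the wider glutathione system, 21 of 28 listed genes were tested, and 2 were called higher and 3 lower, with a median log2 difference of -0.08. Abcc1, an exporter of glutathione and its conjugates, gave 5135, 5767 and 5269 normalized counts in WT against 2374, 3403 and 2511 in R98S, and fell by 0.98 on the log2 scale (limma adjusted p = 0.00637). Gpx4, the glutathione peroxidase that reduces lipid peroxides, fell by 0.65 (limma adjusted p = 0.0200) but missed the threshold after removal of the regional shift (limma adjusted p = 0.110). Slc7a11, the cystine importer that supplies cysteine for glutathione, was the most uneven of these: 1258, 1507 and 312 in WT and 278, 359 and 149 in R98S. WT clone 36 lay with the R98S clones, below R98S clone 13. The log2 difference of -1.77 was called (limma adjusted p = 0.0755), but not without R98S clone 11 or 35 or WT clone 28 or 29 (limma adjusted p between 0.160 and 0.207). Gsto1 and Gstt2, both glutathione transferase genes, rose by 0.37 and 0.63 (limma adjusted p = 0.0583 and 0.0632). Both calls were lost without R98S clone 11 or 35 or WT clone 28, that of Gsto1 also without WT clone 36 and that of Gstt2 also without WT clone 29, with limma adjusted p between 0.118 and 0.221. Gsto1 passed in 10 of the 16 alternative fits, and Gstt2 and Slc7a11 in 11 each. Gpx7 and Gstm5 had no read in any library, which allows at most 3 reads per library.

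In the thioredoxin system, TXNRD1 reduces thioredoxin with NADPH, and sulfiredoxin, encoded by Srxn1, restores peroxiredoxins that peroxide has overoxidized. Txnrd1 (plus strand of chromosome 10, 82833951 to 82897712) gave 3728, 3731 and 2844 normalized counts in WT against 2915, 3014 and 3206 in R98S. All R98S clones lay inside the WT range. The log2 difference was -0.16 (interval -0.46 to 0.13, limma adjusted p = 0.423), and 0.06 once the regional shift was removed.

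Srxn1 (plus strand of chromosome 2, 152105516 to 152111376) gave 2447, 3021 and 2370 normalized counts in WT against 1307, 2182 and 1246 in R98S. The groups did not overlap, but R98S clone 13 came close to WT clone 36. The mean fell from 2613 ± 356 (SD, n = 3) to 1578 ± 524, to 0.604 of the WT level, a log2 difference of -0.77 (SE 0.22, interval -1.26 to -0.27, limma adjusted p = 0.0493). The neighbouring genes hardly differed between the groups, with a regional shift of -0.02, and without this shift Srxn1 differed by -0.75 (limma adjusted p = 0.0170). The call was lost without R98S clone 11 (limma adjusted p = 0.154), R98S clone 35 (0.139), WT clone 28 (0.110) or WT clone 29 (0.146), and was kept without R98S clone 13 or WT clone 36.

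The Srxn1 promoter is shown because it was the only member promoter with the AP-1 motif TGANTCA, which also forms the centre of sites for NFE2 and small MAF dimers. The 250 bases before the RefSeq start (GRCm38.p6, chr2:152105274-152105523, plus strand) hold this motif at positions -102 to -96 and -45 to -39, both printed in capitals. A match to the antioxidant response element core, as searched with TGACNNNGC, lay behind the start, at positions 29 to 37 on the minus strand. The motif at -45 to -39 is followed by gc and differs from this pattern only by TGAG in place of TGAC. Such variants of the core were not searched.
Srxn1: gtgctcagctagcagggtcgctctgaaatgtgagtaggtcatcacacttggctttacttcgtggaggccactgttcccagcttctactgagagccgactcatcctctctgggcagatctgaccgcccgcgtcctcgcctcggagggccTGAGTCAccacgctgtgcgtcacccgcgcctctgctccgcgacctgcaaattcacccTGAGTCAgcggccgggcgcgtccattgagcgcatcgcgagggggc

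Promoter windows from 250 bases before to 50 bases after the start were available for 8 of the 10 members. The core TGACNNNGC was present in 12.4% and TGANTCA in 7.81% of all 32851 windows of this length, and 0.460% held at least 2 copies of TGANTCA. Of the called members, 2 of 3 with a window held the core, Gclm and Srxn1. Of the members that were not called, 2 of 5 held it: Nfe2l2 at positions -240 to -232, and Txnrd1 at -92 to -84 in 1 of its windows. The windows of Keap1, Nqo1, Cat and Sqstm1 held neither motif. A match describes letters in the window and not a bound site. Variants of the core and elements farther away were not searched.

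Of 23 further genes of the thioredoxin and peroxiredoxin system, 21 were tested and 8 called, 4 in each direction, with a median log2 difference of -0.01. Txnip, which binds and inhibits thioredoxin, gave 15552, 15674 and 29641 normalized counts in WT against 5783, 10382 and 6074 in R98S, and fell by 1.44 on the log2 scale (limma adjusted p = 0.0196). The peroxiredoxin genes moved in both directions. Sulfiredoxin is known to restore the typical 2-Cys peroxiredoxins, to which the products of Prdx1, Prdx2 and Prdx3 belong but not that of Prdx5. Prdx1 gave 6906, 6973 and 5619 in WT against 12375, 8733 and 11473 in R98S and rose by 0.73 (limma adjusted p = 0.0203), and Prdx3, the mitochondrial form, rose by 0.56 (limma adjusted p = 0.0840). Prdx2 and Prdx5 fell by 0.67 and 0.61 (limma adjusted p = 0.0156 and 0.0305). After removal of the regional shift, Prdx1 differed by 0.24 and Prdx2 by -0.28, and neither passed (limma adjusted p = 0.334 and 0.132). Among the fits without 1 clone, Prdx3 kept its call only without WT clone 29 (limma adjusted p between 0.10 and 0.221 in the others), and Prdx5 lost it without R98S clone 11 or WT clone 29 (limma adjusted p = 0.104). Prdx3 also missed the threshold without an expression filter (limma adjusted p = 0.1005) or without the intensity trend (0.142).

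Glrx3, a glutaredoxin of iron-sulfur cluster handling, gave 2868, 2776 and 2822 normalized counts in WT against 4582, 4454 and 4049 in R98S and rose by 0.63 (limma adjusted p = 0.00680). It kept its call in all 16 alternative fits. The mitochondrial thioredoxin gene Txn2 rose by 0.38 and its reductase Txnrd2 fell by 0.44 (limma adjusted p = 0.0333 and 0.0921). The call of Txn2 was lost without WT clone 28 or 29 (limma adjusted p = 0.119 and 0.129), and that of Txnrd2 in each fit without 1 clone other than R98S clone 35 (limma adjusted p between 0.131 and 0.276). Txnrd2 passed in 6 of the 16 alternative fits in all, and also missed the threshold with edgeR, DESeq2, no expression filter and both other scalings. Exons of Prdx2 share 173 bases with Junb and 177 with Rnaseh2a on the opposite strand, and those of Prdx5 share 409 with Trmt112. Whether the counting used strand is not given in the sources used here, so reads in these stretches could belong to either gene.

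Catalase, encoded by Cat (minus strand of chromosome 2, 103453849 to 103485160), breaks down hydrogen peroxide in peroxisomes. It gave 2088, 2644 and 2564 normalized counts in WT against 2049, 2862 and 1797 in R98S. R98S clone 13 had the highest value of all 6 and R98S clone 35 the lowest. The log2 difference was -0.14 (interval -0.56 to 0.28, limma adjusted p = 0.631). The regional shift of its neighbouring genes was 0.28 higher in R98S, and with that shift removed Cat differed by -0.42 and passed (limma adjusted p = 0.0953). The superoxide dismutase genes moved apart: cytosolic Sod1 fell by 0.30 and mitochondrial Sod2 rose by 0.38 (limma adjusted p = 0.0736 and 0.0777). Neither call was stable to leaving out 1 clone. That of Sod1 was lost without R98S clone 11 or 13 or WT clone 28 or 29, and that of Sod2 without any clone other than R98S clone 13 (limma adjusted p between 0.106 and 0.229). In all, Sod1 passed in 9 and Sod2 in 8 of the 16 alternative fits, and both also missed the threshold without an expression filter or without the intensity trend. Of the 3 tested genes of this list, these 2 were called and the median was 0.12.

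Nqo1 (minus strand of chromosome 8, 107388225 to 107403206) encodes a quinone reductase that is widely used as a readout of NRF2. It gave 127, 112 and 187 normalized counts in WT against 86.3, 83.7 and 77.7 in R98S. The R98S clones lay close together below all WT clones, whereas WT clone 36 stood above the other WT clones. The mean fell from 142 ± 39.9 (SD, n = 3) to 82.6 ± 4.41, to 0.582 of the WT level, a log2 difference of -0.74 (SE 0.24, interval -1.29 to -0.19, limma adjusted p = 0.0737). The call was lost without R98S clone 11 (limma adjusted p = 0.146), R98S clone 35 (0.161), WT clone 28 (0.156) or WT clone 36 (0.158), and without an expression filter (0.124). Without WT clone 36 the log2 difference was -0.52.

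Hmox1 (plus strand of chromosome 8, 75093621 to 75100589) encodes haem oxygenase 1, which opens haem to biliverdin, iron and carbon monoxide. It gave 2949, 3674 and 2637 normalized counts in WT against 1593, 2506 and 1387 in R98S. The highest R98S clone, 13, was only just below the lowest WT clone, 36. The mean fell from 3087 ± 532 (SD, n = 3) to 1829 ± 595, to 0.592 of the WT level, a log2 difference of -0.79 (SE 0.22, interval -1.30 to -0.28, limma adjusted p = 0.0501). The call was lost without R98S clone 11 (limma adjusted p = 0.152), R98S clone 35 (0.137), WT clone 28 (0.118) or WT clone 29 (0.148). The regional shift of its neighbouring genes was 0.28 lower in R98S, and with this removed Hmox1 differed by -0.51 (limma adjusted p = 0.0836). Macrophages also express Hmox1: of the 5 macrophage markers in the table, 3 had a mean of at least 10, their summed level was 228 to 471 normalized counts in WT and 90.1 to 259 in R98S, Csf1r had at most 7 reads and Marco at most 2. Of the detected ones, Lyz2 gave 4.10, 24.7 and 43.0 normalized counts in WT against 0.938, 0 and 1.85 in R98S and was called lower (log2 difference -3.34, limma adjusted p = 0.0366). Cd14 had 297 reads in WT clone 28, or 304 normalized counts, which are part of the highest WT sum of 471. It gave only 9.67 normalized counts in WT clone 29, and WT clone 36 lay below R98S clone 13 (8.16). The groups of Cd14 thus overlapped and it was not called (limma adjusted p = 0.292). Cd68 also overlapped between the groups. The part of such transcripts in the Hmox1 result was not tested.

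**Figure D3:**
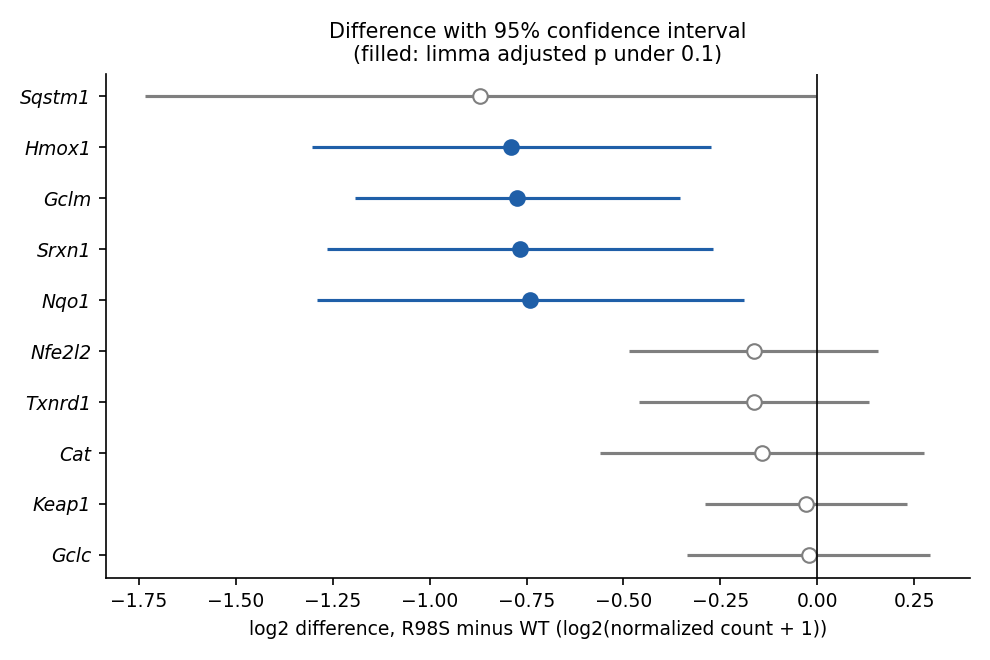
Difference in mean log2(normalized count + 1), R98S minus WT, of the 10 members with 95% confidence intervals from the limma fit, filled blue where called. Intervals of Gclm, Hmox1, Srxn1 and Nqo1 lie below 0 and these genes were called, that of Sqstm1 ends just below 0 and the gene was not called, and the other 5 include 0.

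Of 11 listed genes for haem and iron handling, 10 were in the table, 9 were tested, and 5 were called, 1 higher and 4 lower, with a median log2 difference of -0.51. Slc48a1, which carries haem out of endosomes and lysosomes, gave 6798, 5718 and 5948 normalized counts in WT against 3041, 2348 and 2667 in R98S, and fell by 1.20 on the log2 scale (limma adjusted p = 0.00139). Blvrb, a reductase of flavins and of some biliverdin isomers, fell by 0.69 (limma adjusted p = 0.0235). Blvra, which reduces the biliverdin that haem oxygenase makes, had a log2 difference of 0.22 and did not pass (limma adjusted p = 0.367). Erythroid cells use many of these genes, and 2 of 7 erythroid markers had a mean of at least 10, with a summed level of all 7 of 208 to 691 normalized counts in WT and 374 to 587 in R98S. Hba-a1 gave 29.7, 8.60 and 69.1 in WT against 0, 6.12 and 0.925 in R98S and was called lower (log2 difference -3.52, limma adjusted p = 0.0389), Klf1 had a log2 difference of 0.42 without a call (limma adjusted p = 0.508), and Hbb-bt had no read. Their part in the results for haem genes and Nfe2 was not tested. Tfrc, the transferrin receptor for iron uptake, gave 11132, 11428 and 10402 in WT against 19893, 18275 and 13520 in R98S and rose by 0.63 (limma adjusted p = 0.0299). The calls of Slc48a1, Blvrb and Tfrc held in every fit without 1 clone. Ftl1, the ferritin light chain, and Fech, which inserts iron into protoporphyrin to make haem, fell by 0.55 and 0.51 (limma adjusted p = 0.0581 and 0.0352). Ftl1 lost its call without R98S clone 11 or 35 or WT clone 29 or 36, and Fech without R98S clone 11 or WT clone 28 (limma adjusted p between 0.102 and 0.176). Ftl1 passed in 11 and Fech in 13 of the 16 alternative fits.

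Sqstm1 (minus strand of chromosome 11, 50199366 to 50210827) encodes p62, the cargo receptor of selective autophagy. It gave 7000.2, 12193 and 4223 normalized counts in WT against 3088, 5760 and 3326 in R98S. The WT clones alone spanned 2.89-fold, and R98S clone 13 lay above WT clone 36. Means were 7805 ± 4045 (SD, n = 3) and 4058 ± 1479, a log2 difference of -0.87 (interval -1.73 to -0.0038). Although this was the largest of the 10 differences, it did not pass (limma unadjusted p = 0.0492, adjusted p = 0.157). Without R98S clone 13 it was -1.15 (limma adjusted p = 0.0907), without WT clone 36 it was -1.25 (0.0483), and without WT clone 29 it was -0.48 (0.380). Exons of Sqstm1 share 580 bases with 3010026O09Rik on the opposite strand, a gene with a mean of 98.8 normalized counts.

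Of 9 genes for other autophagy receptors and for the LC3 family, 8 were tested and 3 called, all lower, with a median of -0.19. Calcoco1 fell by 0.70 on the log2 scale, Map1lc3b by 0.39 and Gabarapl1 by 0.35 (limma adjusted p = 0.0646, 0.0568 and 0.0964). These calls did not hold without R98S clone 11 or 35 or WT clone 28 or 29, nor those of Calcoco1 and Gabarapl1 without WT clone 36 (limma adjusted p between 0.117 and 0.245). Calcoco1 passed in 9, Map1lc3b in 10 and Gabarapl1 in 5 of the 16 alternative fits. After removal of the regional shift, Gabarapl1 differed by 0.10 and so changed sign.

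Several members shared an order of the clones within each group. In 6 of the 10 genes the WT clones followed the order 29, 28, 36 from high to low, a pattern seen in 26.7% of all tested genes: Nfe2l2, Hmox1, Gclc, Txnrd1, Srxn1 and Sqstm1. In 5 members R98S clone 13 was the highest of its group, against 37.6% of tested genes, and in 5 members R98S clone 35 was the lowest, against 30.8%. Hmox1, Srxn1, Sqstm1 and Nfe2l2 showed both the WT order and the high value in R98S clone 13, as did 1155 of the 11550 tested genes. Gclm, Gclc and Keap1 had their lowest R98S values in clone 13. These shares describe 6 libraries and were not tested.

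**Figure D4:**
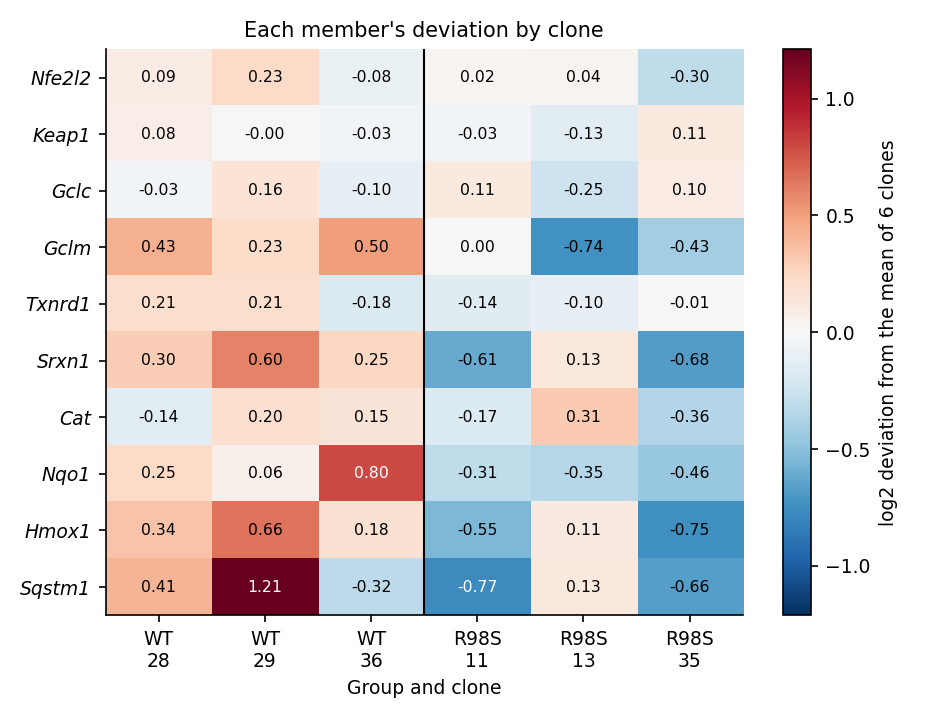
Deviation of log2(normalized count + 1) from the mean of the 6 clones for each member (rows) and clone (columns), as numbers on a colour scale centred at 0. Within each group, Sqstm1, Hmox1 and Srxn1 are highest in WT clone 29 and R98S clone 13, whereas Gclm, Gclc and Keap1 are lowest within R98S in clone 13.

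Levels between members can be compared per length of annotated exon sequence. By the mean over 6 libraries, in normalized counts per kb, the order was Sqstm1 at 1768, Hmox1 at 1404, Cat at 893, Srxn1 at 743, Gclm at 605, Txnrd1 at 457, Gclc at 436, Nfe2l2 at 307, Keap1 at 240 and Nqo1 at 72.3. Ranges over the 6 libraries overlapped between neighbours in this order, except between Gclc and Nfe2l2 and between Keap1 and Nqo1. The group means differed in this order only for Gclc and Txnrd1. Gclc stood just above Txnrd1 in the R98S mean (434 against 429.7) and below it in the WT mean (439 against 485). Cat stood above Srxn1 in both groups, narrowly in WT (931 against 926) and by more in R98S (856 against 560). Nqo1 was the member with the lowest level, at percentile 28.2 of tested genes, and Sqstm1 was at percentile 95.

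In the list of NADPH supply, which feeds both the glutathione and the thioredoxin branch, 10 of 11 genes were tested and 1 was called, with a median of 0.05. Pgls, of the pentose phosphate pathway, fell by 0.53 on the log2 scale (limma adjusted p = 0.0506). This call was lost without R98S clone 11 or 35 or WT clone 28 or 29 (limma adjusted p between 0.121 and 0.164), though the difference stayed negative. Exons of Pgls share 776 bases with Fam129c on the same strand, so its count is uncertain. G6pdx, the entry enzyme of that pathway, gave 4269, 4382 and 3054 normalized counts in WT against 3962, 3698 and 4171 in R98S, with overlapping groups and no call, as had Pgd.

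Of 16 other known NRF2 targets, 12 were tested and 6 called, 1 higher and 5 lower, with a median of -0.85. The metallothionein genes, which bind zinc and other metals, fell the most. Mt2 gave 6472, 11453 and 5015 normalized counts in WT against 2551, 2058 and 869 in R98S, and fell by 2.12 on the log2 scale (limma adjusted p = 0.0169). Mt1, its neighbour on chromosome 8, fell by 1.40 (limma adjusted p = 0.00696), and by 0.88 after removal of the regional shift (limma adjusted p = 0.0410). Trim16 fell by 1.19 (limma adjusted p = 0.0292), Akr1b8, an aldo-keto reductase, by 0.98 (limma adjusted p = 0.00890), and Ugdh, which makes the sugar donor for glucuronidation, by 0.94 (limma adjusted p = 0.0176). Trim16 missed the threshold without R98S clone 11 (limma adjusted p = 0.103), and the other 4 of these 5 genes passed in every fit without 1 clone. Aox1, an aldehyde oxidase, went the opposite way at a low level, with 52.2, 66.6 and 28.0 in WT and 127, 138 and 136 in R98S, a rise of 1.51 (limma adjusted p = 0.0206).

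Together the 8 lists around the members held 114 genes, of which 94 were tested and 32 called, or 34.0%, against 23.9% of all tested genes. Lower calls made up 24.5% of the tested genes of these lists, 23 genes, against 13.1% of all, and 9 genes were higher. Their median log2 difference was -0.19. Because the lists were chosen with earlier results of these data known, these shares are a description and not a test. The calls of 15 of the 32 genes held in every fit that left out 1 clone, and those of the other 17 did not.

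**Figure D5:**
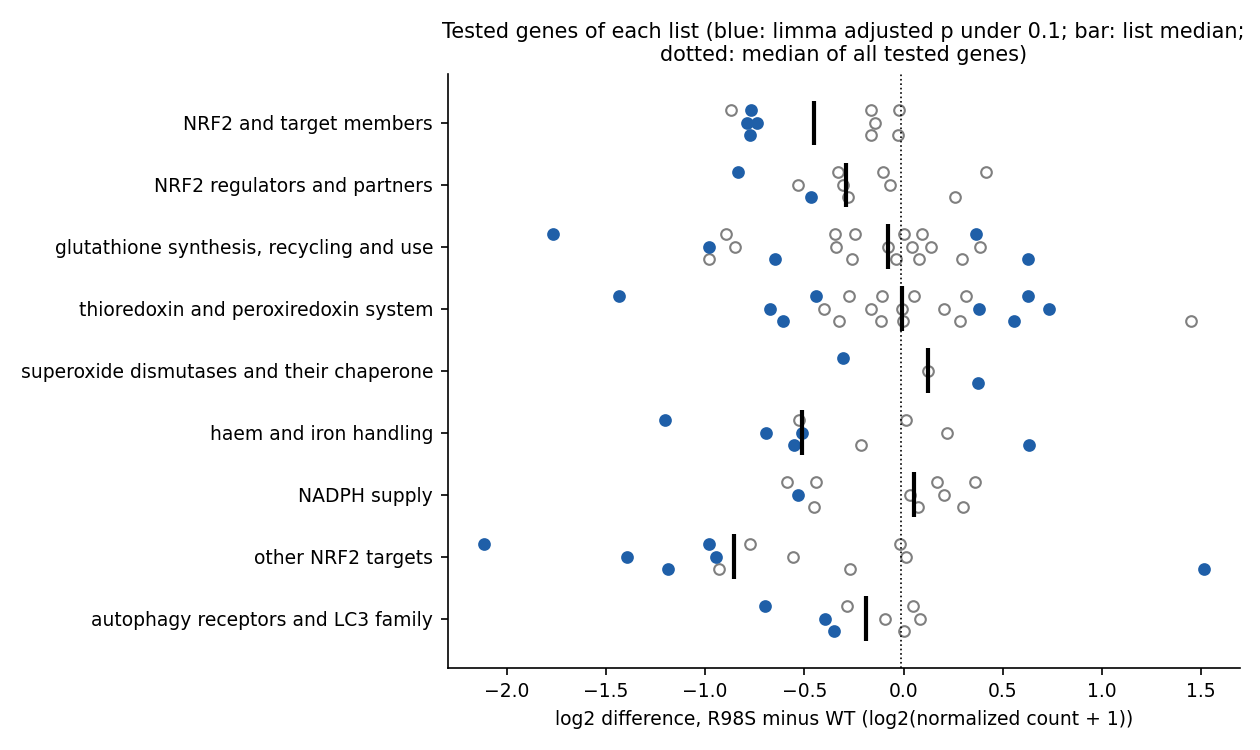
Log2 difference, R98S minus WT, of each tested gene of the members and of the 8 lists around them, with 1 point per gene, filled blue where the gene was called, a bar at the median of the list and a dotted line at the median of all tested genes. The medians of the members (-0.45), of haem and iron handling (-0.51) and of the other NRF2 targets (-0.85) lie below 0, and those of the thioredoxin (-0.01) and NADPH (0.05) lists lie near it.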

How the data were processed

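Polyadenylated RNA of 6 Ba/F3 cultures was sequenced as strand-specific libraries, 1 per clone. The authors removed ribosomal and transfer RNA reads with Bowtie2, aligned the rest to mm10 with TopHat, filtered on mapping quality and counted exon reads. The submitters' processing notes also name SAMtools, HTSeq and DESeq2. The annotation and strand setting are not given in the sources used here. The deposited signal is the authors' read count per gene divided by a DESeq2 size factor per library. A mapping filter lowers genes with near-identical copies.

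In each library 100% of values were whole multiples of 1 step (tolerance 0.01), the worth of 1 read, which gave depths of 21786776 to 24204991 reads. For WT clone 36 the step was 1.0008, too close to 1 to be told from rounding. Counting error was small beside the spread between clones, which sets the precision. Each clone is a separate line, and libraries of a group differed by more than sampling noise. Groups came from the labels.

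Differences were tested with limma 3.58.1 (R 4.3.3, two-sided, intensity trend) on log2(normalized count + 1), which understates changes of low genes, for 11550 genes with a mean of at least 10, with Benjamini-Hochberg adjustment over these and a threshold of 0.1, the rate used in the study. Ratios were tested by exact permutation (scipy 1.17.1). The 16 alternative fits were pseudocounts of 0.5 and 5, no filter or a minimum of 50, scaling to the same total or upper quartile, no trend, each clone left out, removal of the regional shift (the median of the 30 nearest tested genes), and edgeR 4.0.16 and DESeq2 1.42.0 on the recovered reads. An adjusted p threshold of 0.05 was a further alternative. The count tests called 2746 genes (edgeR) and 3105 genes (DESeq2), against 2755 with limma, and 4 members each. The fitting code was tested on simulated data.

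The members and lists were chosen with earlier results of these data known, and no list was tested as a set. The genes named are the members, the NRF2 regulators and partners, Rpl10, and from each other list up to 3 called genes in each direction with the largest log2 difference and a mean of at least 100. Txn2, Txnrd2, Fech, Blvra, Akr1b8, Ugdh, Aox1, G6pdx, Pgd, Gpx7 and Gstm5 were named after their values were seen. The value of 1 marker gene is not reported here. Positions are from GENCODE M21 (GRCm38), and promoter sequences and starts from RefSeq (GRCm38.p6).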

Additional observations from a re-analysis of the deposited data

How the results depend on the processing

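The 4 member calls held with both pseudocounts, a minimum mean of 50, both scalings, no intensity trend, edgeR, DESeq2 and removal of the regional shift, where Cat was called in addition. At an adjusted p under 0.05, 2 members remained, Gclm and Srxn1, both lower. Of the related lists 20 genes then passed, 5 higher and 15 lower, and of all tested genes 1722, with 776 higher and 946 lower. Without an expression filter, 5 genes of the related lists were higher. Leaving out 1 clone gave 1 to 5 called members, all lower. It gave 17 to 34 called genes of the related lists, 4 to 11 higher and 12 to 25 lower, and 1327 to 3219 of all genes, 591 to 1432 higher and 736 to 1787 lower. Leaving out WT clone 28 gave the fewest calls over all genes and leaving out R98S clone 13 the most, and the cause was not tested. Scaling to the same upper quartile moved the share of calls that were higher from 45.0% to 52.1%.

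Of 170 comparisons of single members with their main value, 144 kept direction and call, 15 lost the call, 3 gained it and 8 changed sign. Under the same upper quartile, Keap1 differed by 0.012 and Gclc by 0.019. After removal of the regional shift, Txnrd1 differed by 0.059, Mafk by 0.14, Gabarapl1 by 0.10 and Rpl10, the knocked-down gene, by 0.039. When 1 clone was left out, log2 differences ranged from -0.093 to 0.028 for Keap1, from -0.085 to 0.097 for Gclc, from -0.33 to 0.0016 for Cat, from -0.13 to 0.037 for Mafk, from -0.47 to 0.14 for Maff and from -0.29 to 0.13 for Rpl10. In the main fit, none of these genes was called except Gabarapl1. The Gclm to Gclc ratio ranged from -0.91 to -0.64 and the Nfe2l2 to Keap1 ratio from -0.25 to 0.040.

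No paired analysis was possible because the clone numbers differ between the groups. Genotype was carried by 3 clonal lines per group. The limma p-values weigh the group difference against the spread between these lines, moderated over all tested genes. They cannot separate genotype from other differences between the clonal lines.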
